A study of Chlamydomonas reinhardtii with 3 samples.

Results

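The genes described here had a deposited cytosine methylation level of a few percent in wild type Chlamydomonas reinhardtii, and that level was less than 10 percentage points higher in cells without the CMD1 gene. They were the gene entries on 16 of the chromosomes (1 to 14, 16 and 17) with a wild type level of at least 2% and under 5%, and with a cmd1 knockout (cmd1 KO) level less than 10 points above the wild type level. The rule was met by 636 genes, out of 17326 with a level in both genotypes and 17527 entries in all. These genes were chosen by their wild type level and by the difference between the genotypes, so both are given below as a description and not as a finding. They are called the slightly methylated genes. The median wild type level of all genes was 1.05%, and without conversion rates how much of any level is unconverted cytosine was not tested.

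Genomic DNA was analysed by whole-genome bisulfite sequencing in 2 libraries of cmd1 KO cells and 1 library of wild type cells. Both genotypes were of strain CC125, a laboratory strain of this unicellular green alga. All 3 cultures were grown in acetate medium at 25 °C under a light of 20 μmol photons per m2 per s. They were then exposed to high light (300 μE) in high salt medium. No label names the cmd1 allele or the number of knockout clones. As the deposited table has a single column for both cmd1 KO libraries, each gene has 1 value per genotype and no spread between replicates, and no difference below has a test over replicates.

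Methylated cytosine is made by enzymes that add a methyl group to cytosine in DNA, and the nuclear genome of Chlamydomonas carries little of it compared with land plants. Bisulfite turns unmodified cytosine into a base read as thymine, while methylated cytosine still reads as cytosine. CMD1 is related to the TET enzymes, which in animals oxidise methylated cytosine. CMD1 instead uses vitamin C to attach a glyceryl group to that base.

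The deposited level of a gene is a mean over listed sites, and the lists of the genotypes were unlike. The slightly methylated genes had 19807 listed sites in cmd1 KO and 43300 in wild type, with a median of 27.0 sites per gene in cmd1 KO and 65.5 in wild type. The read depth behind a site is unknown. Site levels were in steps of 0.1 points, which gives the lowest mean that a list without repeated levels can have. None of the 636 cmd1 KO means lay below that lowest mean, against 386 of the 636 wild type means (60.7%), whose lists therefore held repeated levels. The lowest mean is smaller for a shorter list, and the cmd1 KO lists were mostly shorter with higher levels. A mean above it does not show that a list lacks repeated levels, so the cmd1 KO count cannot tell. Such wild type means were general to the table, with 91.3% of all genes and 97.7% of genes under 2%. The lack of such cmd1 KO means was general too, with 0 of all 17326 genes. In the 33 genes of the whole table that stood at 0 in wild type, none of them among the slightly methylated genes, the p-value in the authors' deposited table equalled, in all 33, a rank-sum p in which the cmd1 KO list holds a single zero and no repeated level. Whether the cmd1 KO lists of the slightly methylated genes also kept each level once, and whether this moved their levels, was not tested. Every cmd1 KO level and difference below shares this limit.

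The median level of the slightly methylated genes was 7.27% in cmd1 KO (quartiles 6.21% and 9.24%) and 2.42% in wild type (quartiles 2.16% and 3.03%). The median difference was 4.70 points. It was 4.71 points in the 15396 genes of the same chromosomes under 2% in wild type and 4.73 points over all 17326 genes, but those groups were not held under 10 points. Without that bound the 759 genes between 2% and 5% in wild type had a median difference of 5.22 points. In all, 635 of the 636 genes (99.8%) were higher in cmd1 KO and 1 was lower, while 99.1% of all genes were higher. A level at least 5 points higher in cmd1 KO was found in 284 genes (44.7%), and in 41.7% of all genes. Because the rule used this contrast, nothing is read from these medians and shares.

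The ratio of the levels and the spread of the differences are also set in part by the rule and are given as a description. The cmd1 KO level was a median of 2.87 times the wild type level in the slightly methylated genes (quartiles 2.37 and 3.46), against 5.77 times in genes under 2%. The ratio was 2 or more in 562 of the 636 genes (88.4%), against 99.9% of genes under 2%. The standard deviation of the difference over genes was 2.01 points in the slightly methylated genes, from which the rule removed the largest ones, and 1.80 points in genes under 2%. At the low end, 551 slightly methylated genes (86.6%) were at least 3 points higher in cmd1 KO, against 95.4% of genes under 2% and 93.7% of all genes.

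**Figure D1:**
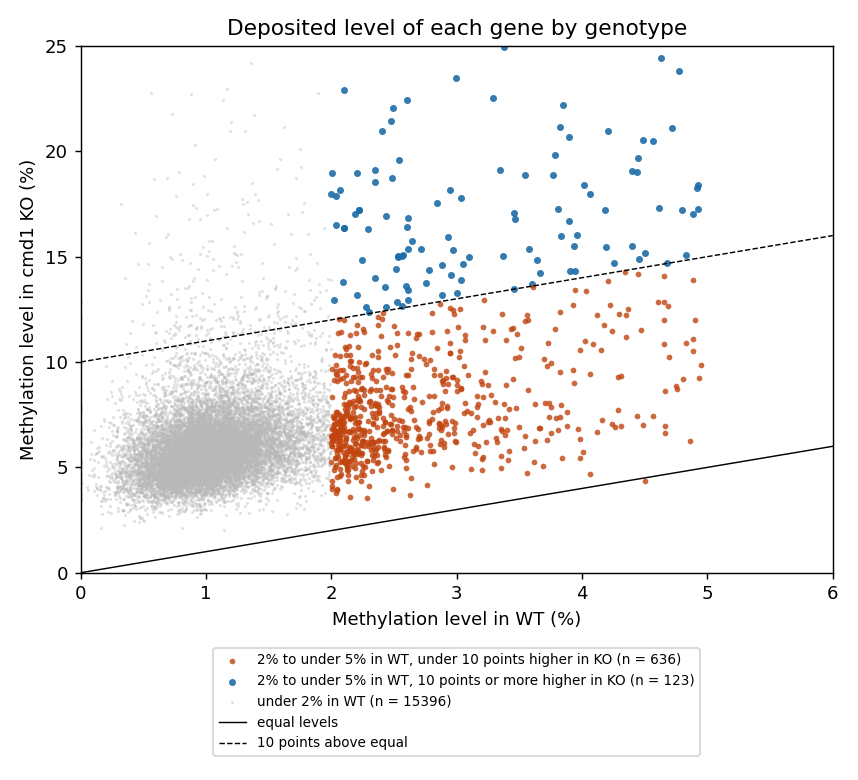
Deposited methylation level of each gene in cmd1 KO (vertical axis, %) against wild type (horizontal axis, %), 1 point per gene. The 636 slightly methylated genes lie between the line of equal levels and the line 10 points above it, except for 1 gene just below equal levels. Above the axis, and not drawn, are 10 genes under 2% and 13 genes of the same wild type band.

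**Figure D2:**
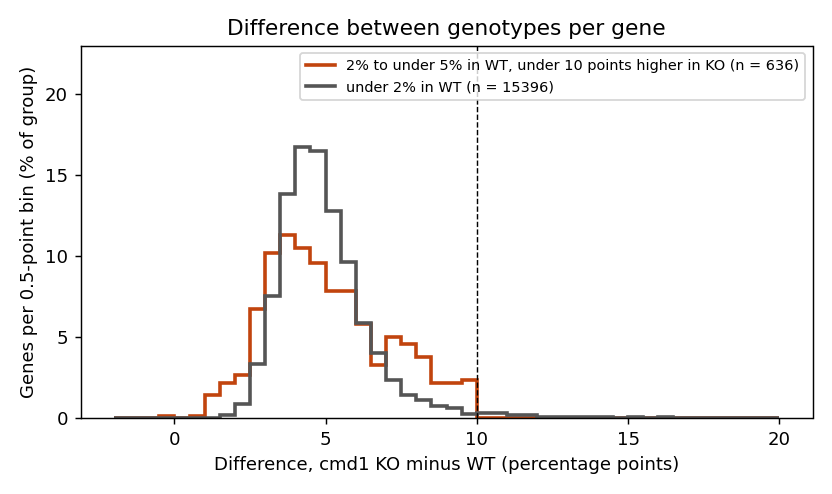
Share of genes (vertical axis, % of the group) by the cmd1 KO minus wild type difference (horizontal axis, points, in bins of 0.5 points), for the 636 slightly methylated genes and the 15396 genes under 2% in wild type. Both groups peak between 3 and 5 points, and the slightly methylated genes have larger shares just below 3 points and just below the bound of 10 points. Beyond the axis, and not drawn, are 19 genes under 2%.

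Most of the slightly methylated genes stood near the lower bound of wild type methylation. There were 353 genes between 2% and 2.5% in wild type, 117 between 2.5% and 3%, 114 between 3% and 4%, and 52 between 4% and 5%. The median difference was 4.61, 4.66 and 4.57 points in the first 3 of these bands and 5.84 points in the band from 4% to 5%. These medians are held down by the bound of 10 points. Over all genes of these chromosomes, without the bound, the median difference was 4.99 points between 2% and 3% in wild type, 5.71 points between 3% and 4% and 7.98 points between 4% and 5%. The median cmd1 KO level was 6.81% in the lowest band and 10.54% in the highest. Across the 636 genes the wild type level had a Spearman's rho of 0.05 with the difference and of 0.34 with the cmd1 KO level, where all points come from the same libraries, the wild type level is part of the difference, and the bound limits the difference.

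The same wild type bands also held genes at least 10 points higher in cmd1 KO, which the rule left out. These were 123 of the 759 genes between 2% and 5%, with a median of 17.03% in cmd1 KO and 2.97% in wild type. Their share was 8.31% of the genes between 2% and 2.5% in wild type, 20.9% between 2.5% and 3%, 21.9% between 3% and 4%, and 35.0% between 4% and 5%. The slightly methylated genes thus made up less of each higher band.

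The number of listed sites was not itself used to choose the genes, but each level that the rule used is a mean over these sites. How far the site numbers and their ratios follow from the choice by level was not tested. In cmd1 KO the number of sites was a median of 0.45 times that in wild type (quartiles 0.35 and 0.56), against 0.30 times in genes under 2% and 0.57 times in the 123 genes of the same band that were at least 10 points higher. Within the slightly methylated genes the median ratio was 0.42 between 2% and 2.5% in wild type, 0.46 between 2.5% and 3%, 0.51 between 3% and 4%, and 0.59 between 4% and 5%. The cmd1 KO list was the longer one for 19 of the 636 genes (2.99%), against 0.208% of genes under 2%, 64.1% of the 714 genes at 5% or more, and 3.46% of all genes. Genes with many sites in one column had many in the other (Spearman's rho 0.83 over the 636 genes, from the same table). The difference in level had a rho of 0.13 with the ratio of sites over the 636 genes, where the bound of 10 points limits the difference. Whether the shorter cmd1 KO lists moved the levels was not tested.

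**Figure D3:**
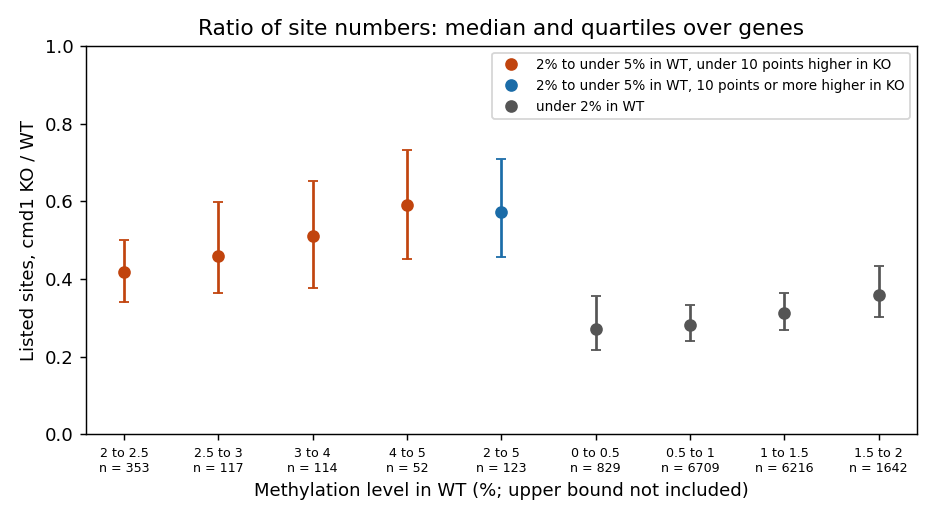
Listed sites in cmd1 KO divided by those in wild type (vertical axis), by wild type level (horizontal axis, %). Points are medians and bars are quartiles over genes, with the number of genes below. The median is 0.42 in the lowest band of slightly methylated genes and 0.59 in the highest, against 0.36 or less in each band under 2%.

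A second cmd1 KO level, called the longer-list level, was obtained by dividing the summed cmd1 KO levels of a gene by the length of the longer of its lists, so that sites by which the cmd1 KO list is shorter count as 0. It is no lower limit, since the true number of cmd1 KO sites can exceed both lists: between 20% and 40% in wild type the cmd1 KO lists were a median of 1.35 times as long as the wild type lists. On this scale the slightly methylated genes had a median of 3.34% in cmd1 KO, against their deposited 2.42% in wild type, and a median difference of 0.72 points. The genes under 2% had the same median difference of 0.72 points. The longer-list level was above wild type in 466 of the 636 genes (73.3%), against 93.8% of genes under 2% and 92.1% of all genes. It was above wild type in 100% of the 123 genes of the same band that the bound of 10 points left out. It was at least 5 points above wild type in 22 genes (3.46%), against 3.29% of all genes. In the band from 4% to 5% in wild type the median longer-list level was 5.72% and the median difference 1.29 points. This scale is made from the levels that the rule used, so nothing is read from these medians and shares.

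Few listed sites were found for a larger share of the slightly methylated genes than of genes under 2%. Fewer than 20 wild type sites were listed for 48 of the slightly methylated genes (7.55%), against 1.33% of genes under 2%, 2.44% of the 123 genes that were at least 10 points higher and 1.73% of all genes. Of the genes of these chromosomes with 5 to 19 wild type sites, 17.5% were slightly methylated (exact Clopper-Pearson 95% interval 13.2% to 22.5%, which covers counting error only). The share was 7.90% with 20 to 39 sites, 4.18% with 40 to 79 sites, 2.55% with 80 to 119 sites and 2.16% with 120 sites or more (interval 1.64% to 2.78%). The level is a mean over these sites, and how far the scatter of means over few sites sets these shares was not tested. In 168 of the 636 genes (26.4%) the wild type levels of all sites summed to 100 points or less, as much as 1 fully methylated site would give, against 63.6% of genes under 2% and 58.7% of all genes. The median sum was 164.8 points in the slightly methylated genes and 83.2 points in genes under 2%. The sum is the wild type level times the number of sites, so the rule sets these sums and shares in part. The median difference was 3.89 points in the 48 genes with 5 to 19 sites and 5.12 points in the 58 genes with 120 sites or more. In genes under 2% with the same site numbers it was 4.65 and 4.60 points. Only the slightly methylated genes were held under 10 points by the rule, so nothing is read from these medians.

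**Figure D4:**
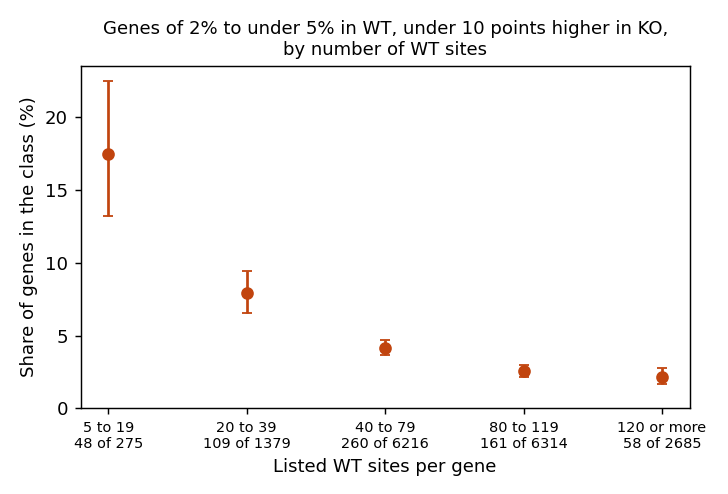
Share of genes on the 16 chromosomes that were slightly methylated (vertical axis, %), by the number of wild type sites listed for the gene (horizontal axis). Bars are exact 95% intervals and the counts stand below. The share is 17.5% with 5 to 19 sites and 2.16% with 120 sites or more.

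The genes at the ends of the range show what a value rests on. The 8 largest differences lay between 9.73 and 9.99 points, with levels of 12.0% to 14.3% in cmd1 KO and 2.06% to 4.45% in wild type. Cre07.g354850, with the largest, stood at 12.1% over 31 sites in cmd1 KO and 2.06% over 91 sites in wild type. Its longer-list cmd1 KO level was 4.11%. Cre01.g016651 stood at 12.0% over 24 sites in cmd1 KO and 2.10% over 31 sites in wild type. Its longer-list cmd1 KO level was 9.27%, which is 7.17 points above wild type.

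The 8 smallest differences lay between -0.15 and 1.39 points, with levels of 3.52% to 6.25% in cmd1 KO and 2.28% to 4.86% in wild type. Cre07.g316350 was the only gene of the 636 that was lower in cmd1 KO, at 4.36% over 14 sites in cmd1 KO and 4.50% over 62 sites in wild type. The authors' deposited table gives it p = 0.000154 (0.000168 after Benjamini-Hochberg adjustment over all genes); the difference of the means is -0.15 points. Cre06.g254240 stood at 4.70% over 24 sites in cmd1 KO and 4.07% over 18 sites in wild type, a difference of 0.63 points. It is one of the 19 genes with the longer list in cmd1 KO.

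The 5 genes with 96 to 103 cmd1 KO sites, and 108 to 157 wild type sites, differed by 2.51 to 5.55 points. Among them, Cre12.g556803 stood at 7.38% over 103 sites in cmd1 KO and 3.74% over 126 sites in wild type, and Cre03.g157564 at 6.88% over 100 sites in cmd1 KO and 3.67% over 113 sites in wild type. The longer-list cmd1 KO levels of these genes were 6.03% and 6.09%, above wild type in both. At the other end, 5 genes with only 5 cmd1 KO sites differed by 1.82 to 4.26 points. Cre02.g082250 stood at 4.12% in cmd1 KO and 2.30% over 14 sites in wild type, and Cre10.g462950 at 6.96% in cmd1 KO and 3.88% over 6 sites in wild type.

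The bounds cut through a continuous range. Just inside the lower wild type bound, Cre04.g216300 stood at 5.28% in cmd1 KO and 2.00% in wild type, and just outside it Cre08.g376900 stood at 10.6% in cmd1 KO and 1.997% in wild type. Just inside the upper bound, Cre16.g667250 stood at 9.88% in cmd1 KO and 4.95% in wild type, and just outside it Cre01.g005651 stood at 9.82% in cmd1 KO and 5.002% in wild type. For the difference, Cre17.g729101 lay inside at 9.94 points and Cre09.g406500 outside at 10.02 points.

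The share of slightly methylated genes that lay beside another methylated gene was between those of genes under 2% and of the 123 genes that were at least 10 points higher. The wild type level of the adjacent entries, 1 on each side in the order of locus numbers, was not used by the rule. An adjacent entry at 2% or more in wild type was found for 169 of the 636 genes (26.6%, exact 95% interval 23.2% to 30.2%). The share was 43.1% in the 123 genes of the same band that were at least 10 points higher (34.2% to 52.3%), 10.9% in genes under 2% (10.4% to 11.4%), 15.2% in all genes, and 76.9% in the 714 genes at 5% or more. An adjacent entry at 10% or more was found for 45 slightly methylated genes (7.08%), 17.9% of the 123 genes, 2.06% of genes under 2%, 58.8% of genes at 5% or more and 5.22% of all genes. These intervals take genes as independent, which neighbours are not, and neighbouring genes can share sites where their regions overlap. The part of shared sites in these shares was not tested.

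By the gene's own wild type level, the share with such a neighbour was 22.1% between 2% and 2.5%, 29.1% between 2.5% and 3%, 29.8% between 3% and 4%, and 44.2% between 4% and 5%. It was 25.0% in the 48 slightly methylated genes with 5 to 19 wild type sites and 32.8% in the 58 with 120 sites or more. In genes under 2% with the same site numbers it was 9.80% and 9.81%. With 20 to 39 sites the share was 19.3%, against 12.0% in genes under 2%. It was 28.1% against 11.5% with 40 to 79 sites, and 27.3% against 10.5% with 80 to 119 sites. The median difference was 4.72 points in the 169 genes with such a neighbour and 4.69 points in the other 467. The bound of 10 points limits the difference in both groups, so nothing is read from these medians. An adjacent entry at least 10 points higher in cmd1 KO was found for 64 of the 636 genes (10.1%), against 31.7% of the 123 genes, 5.24% of genes under 2%, 22.8% of genes at 5% or more and 6.59% of all genes.

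**Figure D5:**
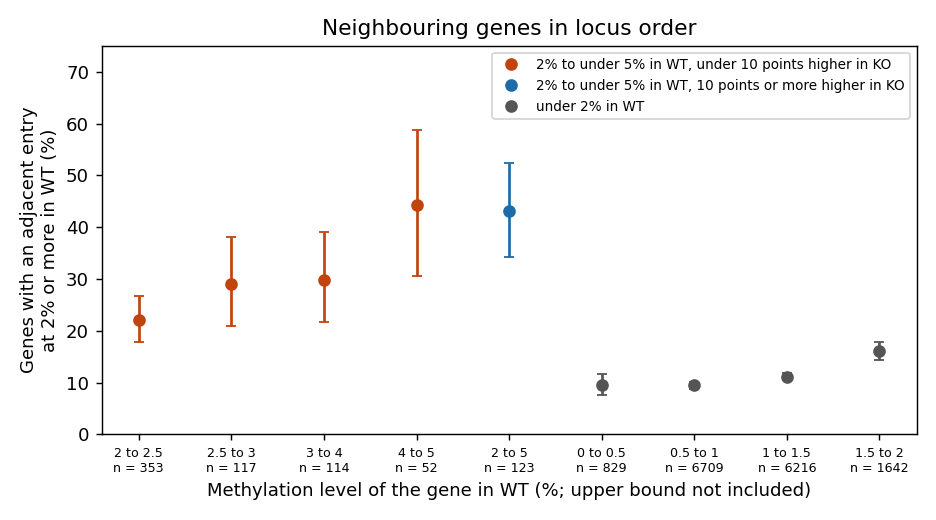
Share of genes with an adjacent entry at 2% or more in wild type (vertical axis, %), by the gene's own wild type level (horizontal axis, %). Bars are exact 95% intervals, with the number of genes below. The share is 22.1% to 44.2% in the bands of slightly methylated genes and 16.1% or less in the bands under 2%.

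Of the 636 genes, 89 (14.0%) lay directly beside another of them in locus order, and 547 did not. Of all genes, 7.05% lay beside one of the 636, and of genes at 5% or more 10.6% did. The 89 formed 33 pairs, 5 runs of 3 genes and 2 runs of 4 genes. The run from Cre03.g155976 to Cre03.g156100, on chromosome 3, held 4 genes at 6.11% to 7.18% in cmd1 KO and 2.18% to 3.75% in wild type. The run from Cre09.g392914 to Cre09.g392988, on chromosome 9, held 4 genes at 7.88% to 12.2% in cmd1 KO and 2.09% to 4.75% in wild type. Levels within the first run were closer together than within the second. In the order of the reference annotation, 92 of the genes lay beside another, and 4 of the 7 runs of 3 or more were found with the same members, the run on chromosome 3 among them.

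A single pair, Cre16.g685949 and Cre16.g686061, had the same values in every column, 6.57% over 35 sites in cmd1 KO and 2.06% over 70 sites in wild type. Both were kept among the 636, and whether their sites are the same was not tested. The whole table held 18 pairs of this kind.

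The slightly methylated genes were found on all 16 chromosomes of the rule. They made up 3.77% of the 16869 genes there. The share was lowest on chromosome 6, with 47 of 1569 genes (exact 95% interval 2.21% to 3.96%), and highest on chromosome 11, with 28 of 525 genes (5.33%, interval 3.57% to 7.62%). Chromosome 5, with 24 of 453 genes (5.30%), stood next to chromosome 11. The intervals of chromosomes 6 and 11 overlap. The median difference per chromosome lay between 3.57 points in the 18 genes of chromosome 4 and 5.69 points in the 28 genes of chromosome 11.

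With the p-values that the authors' deposited table gives, adjusted over the 17326 genes by Benjamini-Hochberg, 612 of the 636 genes (96.2%) passed 0.05, against 97.8% of all genes. Of these, 611 (96.1%) had the higher level in cmd1 KO, against 97.6% of all genes. These p-values compare site lists within the libraries, not genotypes across replicates, and the rule used the same contrast. Each of the 24 genes that did not pass had a higher level in cmd1 KO, and their median difference was 2.72 points. They had medians of 9.0 sites in cmd1 KO and 10.5 in wild type, and 21 of them had fewer than 20 wild type sites.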

How the data were processed

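Per the labels' protocols, DNA was spiked with unmethylated lambda DNA (about 2%), broken into fragments near 300 bp and bisulfite converted (about 500 ng). FastQC 0.11.5, Trimmomatic 0.36 and BSMAP were used, per the submitters' processing notes. Not given in the sources used here: genome build, annotation, coverage minimum, cytosine context, the region taken for a gene and conversion rates.

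The authors deposited 1 table. Per the file headers, the authors gave a count of sites per genotype and the methylation level as a fraction, printed here as percent. The deposited difference and relative change (unit score) were computed by the authors from the levels and were not used. The deposited fold, a ratio of the levels made by the authors, was not used. The deposited p-value was computed by the authors per gene, unadjusted, with a test that no source here names. Of 17527 entries, 201 without levels were left out. Differences were computed as cmd1 KO minus wild type. Python 3.11.15 with pandas 2.3.3 and SciPy 1.17.1 was used; the rule, neighbour search and adjustment were tested on simulated data. Levels of 5 points stand for size, with no test.

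All 636 genes were found in RefSeq's gene table (assembly Chlamydomonas_reinhardtii_v5.5), which gives no name to any of them, so the planned product lists and sequence features could not be used. At most 2 identifiers are printed per planned group: the 8 largest and 8 smallest differences, genes at the bounds, the longest runs, and the 5 genes with most and fewest cmd1 KO sites. A pair with equal values and the ends of the runs are also named. The members and lists were chosen with earlier results of these data known. Alternatives covered site minimum, bounds, denominator and neighbour definition.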

Additional observations from a re-analysis of the deposited data

How the results depend on the processing

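No paired analysis was possible because the cmd1 KO libraries share 1 column, so no result comes from a test over replicates; for the same reason no replicate could be left out. With at least 20 sites in both columns, 421 genes were kept, with medians of 7.68% in cmd1 KO and 2.50% in wild type. Their median difference was 5.08 points, their site ratio 0.47, and 100% of them were higher in cmd1 KO. Over all genes, without that minimum, 99.1% were higher. With a wild type level of at least 3%, 166 genes were kept, 82 of them higher by at least 5 points (41.7% of all genes were). Their medians were 8.65% in cmd1 KO and 3.64% in wild type, with a median difference of 4.96 points and a site ratio of 0.54. Of them, 34.3% had an adjacent entry at 2% or more, against 15.2% of all genes. With a bound of 20 points on the difference, the medians were 7.78% in cmd1 KO and 2.48% in wild type and the median difference 5.17 points. With no bound the medians were 7.87% in cmd1 KO and 2.49% in wild type, with 5.22 points as the median difference, and the site ratio was 0.46. With genes chosen anew on the longer-list cmd1 KO level, the median level in cmd1 KO was 3.62%. It lay 1.02 points above wild type in the median gene. Of these 730 genes, 76.7% were higher in cmd1 KO, against 92.1% of all genes on this scale. By at least 5 points, 79 of the 730 were higher, against 22 of the 636 and 3.29% of all genes on this scale. The 730 include genes that the bound of 10 points left out on the deposited levels. This denominator counts missing cmd1 KO sites as 0, so it lowers the level by construction. At a size of 3 points, 551 genes were higher (86.6%, against 93.7% of all genes). With 3 entries on each side, 48.6% had an adjacent entry at 2% or more (27.3% of genes under 2% and 31.7% of all genes). With a threshold of 5% the share was 11.3% (3.37% of genes under 2% and 7.13% of all genes). In the order of the reference annotation, an alternative chosen after seeing the data, the share at 2% or more was 28.0% (10.1% of genes under 2% and 15.2% of all genes). The median difference stayed above 0 under each of the settings run for it. The rule used this contrast, and 99.1% of all genes were higher in cmd1 KO, so nothing is read from this. The unknown read depth and the single wild type library limit every value.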
